A study of Mus musculus with 19 samples.

Results

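The genes described are the nuclear genes of the mitochondrial ribosomal proteins, taken as every gene symbol of the form Mrpl or Mrps followed by a number and, for some, a letter, with an expected count of 10 or more in at least 5 of the 19 libraries. All 78 symbols of that form among the 53558 gene identifiers of the files met the count rule, so none lay outside it, and all 78 were among the 13986 genes tested. They comprised 49 Mrpl and 29 Mrps genes. The gene nearest the rule was Mrpl23, which reached 10 counts in 7 libraries. By a division taken from the known structure of the particle, 30 members encode large subunit proteins with a bacterial counterpart, 21 large subunit proteins found only in mitochondria, 16 small subunit proteins with a bacterial counterpart and 10 small subunit proteins found only in mitochondria. Mrps36 carries the name but is now described as a component of the 2-oxoglutarate dehydrogenase complex, and it was given no role.

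RNA was sequenced from neoplastic cells of lung tumors in KT;H11LSL-Cas9 mice, which carry a tdTomato reporter and Cre-activated Cas9. All tumors were started by lentivirus given into the trachea that brought Cre and guide RNAs together, and grew for 17 weeks. The virus carried guides without a target gene (sgInert, 7 libraries), guides to Cebpa, Cebpb and Cebpd together (sgCebpa/b/d, 7 libraries), or a guide to Lkb1 (sgLkb1, 5 libraries; the gene is listed as Stk11). Editing by Cas9 varies from cell to cell, each library pools the cells of dissected tumors, and the mice were young adults of a mixed C57BL/6J:129 background when tumors were started, with no age given per library. Cells bearing CD45, CD31, F4/80 or Ter119 were sorted away.

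Total expected counts ran from 2760731 to 9944134 per library, of which 3613 to 14890 fell on the 78 genes. Stk11 was lower in sgLkb1 than in sgInert in every library (log2 fold change -1.24, SE 0.17, edgeR adjusted p = 0.000107). Sample titles fall in series that are not shared evenly: sgInert holds 4 ZR-numbered and 3 MT-numbered libraries, sgCebpa/b/d holds 4 MT libraries and 3 without an animal number, and sgLkb1 holds 3 and 2. All 5 sgLkb1 libraries were from females, as were the 4 MT libraries of sgCebpa/b/d. The other 3 of sgCebpa/b/d were from males, so that series and sex cannot be told apart there. In sgInert, 2 MT libraries were female and 1 male, and 1 ZR library was female and 3 male. The comparison of sgLkb1 with sgInert thus sets females alone against both sexes. In each group 2 or 3 libraries share an animal number. The p-values therefore measure the spread between libraries, which may be smaller than that between animals.

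Mitochondria keep their own ribosome, which translates the handful of messages of mitochondrial DNA into membrane subunits of the respiratory chain and ATP synthase. Its RNAs are made inside the organelle, whereas its proteins are encoded in the nucleus, made on cytosolic ribosomes and imported. In the nucleus these genes are known to be driven by housekeeping factors such as NRF1, ETS-family factors (GABP) and YY1, and by coactivators of the PGC-1 family, and MYC is known to raise both kinds of ribosomal protein. The study asked what loss of the C/EBP factors or of LKB1 changes in these tumors, and the comparisons here ask it of the messages for this ribosome.

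The 78 genes are spread over 17 chromosomes, and 33 of them (42.3%) start within 1000 bases of a protein-coding gene on the opposite strand, against 16.02% of the 11905 protein-coding genes tested and 20.3% of the 79 cytosolic ribosomal protein genes. The intergenic stretches of a pair of such genes are printed because both genes stand out below, Mrpl57 for its difference between groups and Mrps12 for its split by title series. They run 5' to 3' on the strand of the member, taken from RefSeq promoter windows (GRCm38.p6) cut at GENCODE exons. Each goes from the base after the neighbor's first exon toward the member's, for Mrpl57 up to the base before it. For Mrps12 the stretch stops at base 28741822, just short of the GENCODE exon, which begins at 28741820 on the minus strand. Capitals mark a GC box, read as GGGCGG on the other strand.
Mrpl57 (chr14:57826186-57826233, plus strand, between Ska3 and Mrpl57): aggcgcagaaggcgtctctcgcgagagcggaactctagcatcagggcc
Mrps12 (chr7:28741822-28741991, minus strand, between Sars2 and Mrps12): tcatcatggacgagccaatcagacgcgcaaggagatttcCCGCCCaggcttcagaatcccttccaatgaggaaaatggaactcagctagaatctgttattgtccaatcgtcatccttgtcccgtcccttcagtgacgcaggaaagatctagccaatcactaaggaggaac
The stretch before Mrpl57 is 48 bases long and holds none of the 6 motifs searched, although its promoter window beyond the stretch holds a GC box. That before Mrps12 is 170 bases long and holds a GC box, and its window beyond the stretch a YY1 core. Ska3 encodes a kinetochore protein and Sars2 the mitochondrial seryl-tRNA synthetase.

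Promoter windows of 250 bases before to 50 after the start were found for 69 of the 78 members. Letters were searched on both strands. The NRF1 core GCATGCGC lay in the windows of 8 members (11.6%), among them Mrpl33 and Mrpl32, against 5.91% of the tested genes with a window and 3.05% of all genes with one. The ETS core CCGGAAGT lay in 12 (17.4%), against 9.24% and 4.31%, and the YY1 core AAGATGGC in 12 (17.4%), against 5.21% and 3.19%. Among the cytosolic ribosomal protein genes the 3 shares were 5.17%, 18.97% and 10.3%. The E-box CACGTG lay in 5 members (7.25%), against 11.7% of the tested genes. The C/EBP palindrome TTGCGCAA was in none of the 69 windows, and it is rare, lying in 0.340% of the tested genes' windows. The GC box GGGCGG lay in 34 (49.3%), against 68.5%. These are matches of letters, which say nothing of binding.

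The level of the genes spanned 86.7-fold. Per length, in TPM, the deposited length-corrected abundance, their means over the 19 libraries ran from 2.63 to 228, with a median of 17.0, whereas the 79 cytosolic genes ran from 126 to 3744 with a median of 1007. The top 4 genes were Mrpl33 (228 ± 47.2 TPM, SD, n = 19), Mrps21 (182 ± 22.2), Mrpl52 (164 ± 39.3) and Mrpl32 (147 ± 28.4), and neighbors in this order differed by less than the larger SD of the pair. Mrpl33, Mrpl32 and Mrps21 are counterparts of bacterial L33, L32 and S21, and Mrpl52 is found only in mitochondria. Together they held 23.3% to 31.7% of the members' summed TPM in each library.

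The 4 lowest genes were Mrpl11 (2.63 ± 1.00 TPM), Mrps27 (3.92 ± 2.28), Mrpl45 (4.06 ± 1.24) and Mrpl19 (4.41 ± 1.46), whose ranges overlap. Mrpl11 belongs to the stalk base, Mrps27 is a pentatricopeptide repeat protein of the small subunit, Mrpl45 lies by the exit tunnel and faces the inner membrane, and Mrpl19 is the counterpart of bacterial L19. These are levels of messages and not of proteins. The 3 paralogs of bacterial S18 also differed, with Mrps18c at 37.1 ± 15.9 TPM, Mrps18b at 17.1 ± 5.23 and Mrps18a, a large subunit protein, at 9.503 ± 3.47. Between groups, the order of the 78 genes by mean TPM had a Spearman rho of 0.961 to 0.973 (over genes, which are not independent). The rho between effective length and TPM was -0.59, a description of genes that share the same libraries. TPM is itself divided by effective length, so this rho is in part set by that division.

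**Figure D1:**
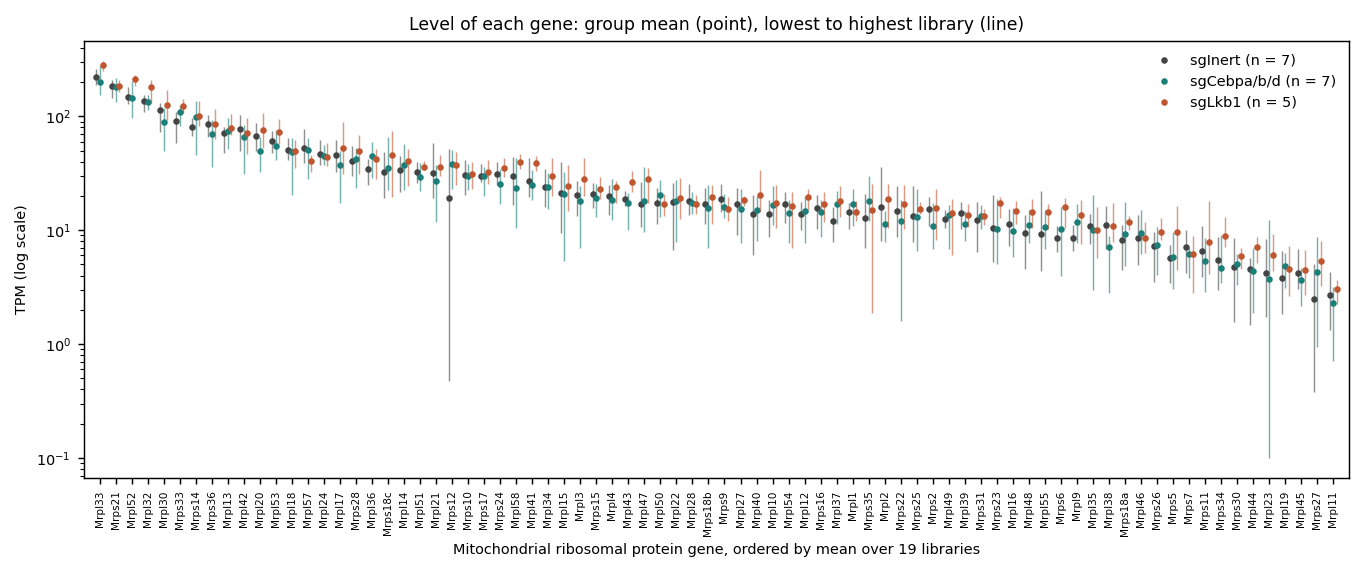
TPM of the 78 mitochondrial ribosomal protein genes on a log axis, ordered by their mean over 19 libraries; points are group means and lines run from the lowest to the highest library. Group means run from Mrpl33 to Mrpl11 in much the same order (Spearman rho 0.961 to 0.973), with sgLkb1 above sgInert at Mrpl52 and a long line for Mrps12 in sgInert; the library of Mrpl23 listed at 0 is drawn at the foot of its line.

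Some counts are less certain than others. In 11 members the expected count was not whole in over 9 of the 19 libraries (tolerance 0.001), which marks reads shared with other genes, and 61 members had whole counts throughout. Mrpl23, which lies at the exit tunnel, had 0 to 24.2 counts, while its pseudogene Mrpl23-ps1 took 19.2 to 149. Its share of the pair was 11.8% for sgInert, 8.90% for sgCebpa/b/d and 14.2% for sgLkb1, and its fold changes are uncertain for that reason. Exons of 28 members overlap a gene on the opposite strand and those of 8 a gene on the same strand. Whether strand was used in counting is not given in the sources used here, so reads of such pairs may be mixed. Of the genes named here or in the closing section this holds for Mrpl19, Mrpl43, Mrpl58, Mrps18b, Mrps25 and Mrps27 (opposite strand), Mrpl33, Mrps6 and Mrps18c (same strand) and Mrps34 (both).

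No mitochondrial ribosomal protein gene passed the test when the 3 C/EBP factors were targeted. In sgCebpa/b/d against sgInert the median log2 fold change of the 78 genes was -0.077, with 48 of them below 0, against 0.019 over all 13986 genes tested. In edgeR's quasi-likelihood test 0 members passed an adjusted p of 0.05, whereas 10.1% of all genes did. At an unadjusted p under 0.05, 5 members were lower and 2 higher, and 23.2% of all genes fell under it. DESeq2 also called no member (13% of all genes), nor did limma on log2(TPM + 1) (7.46%). On the log2 CPM scale no member's libraries were fully apart between the groups, against 3.37% of all genes. In bulk RNA, fewer cells of one kind and less RNA per cell cannot be told apart.

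The lowest 3 were Mrpl38, Mrpl2 and Mrps2. Mrpl38, a large subunit protein particular to mitochondria, ran from 2.74 through a median of 3.23 to 3.59 log2 CPM (library-scaled read abundance, not divided by length) in sgInert and from 1.52 through 2.72 to 2.97 in sgCebpa/b/d, which overlap over a short range. Its log2 fold change was -0.64 (SE 0.24, edgeR adjusted p = 0.107). Mrps2, the counterpart of bacterial S2, ran from 4.10 through 4.47 to 4.91 in sgInert and from 3.46 through 3.91 to 4.53 in sgCebpa/b/d (log2 fold change -0.54, SE 0.21, adjusted p = 0.114). Its 3 sgCebpa/b/d libraries without an animal number stood at 3.46 to 3.69, below the 4 MT libraries at 3.91 to 4.53, and without the unnumbered libraries of sgCebpa/b/d and sgLkb1 the log2 fold change was -0.30. Mrpl2, counterpart of L2, had a log2 fold change of -0.60 (SE 0.30, adjusted p = 0.233), and its sgInert libraries spanned 2.33 to 4.45 log2 CPM. Without sgInert replicate 5 the value for Mrpl2 was -0.27 (adjusted p = 0.609).

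The highest 3 were Mrps12, Mrpl37 and Mrps27. Mrpl37, found only in mitochondria, ran from 2.93 through 3.61 to 4.07 log2 CPM in sgInert and from 3.62 through 4.03 to 4.45 in sgCebpa/b/d (log2 fold change 0.45, SE 0.19, adjusted p = 0.140). Mrps12 (0.85, SE 0.50, adjusted p = 0.333) and Mrps27 (0.43, SE 0.47, adjusted p = 0.646) had wide errors, and Mrps27 stood at 0.81 without sgInert replicate 2 and at 0.26 without sgInert replicate 4, with a like drop without sgCebpa/b/d replicate 2. Both turned negative within the MT libraries, as set out with the title series below.

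The absence of calls has a bound. For 72 of the 78 members the 95% interval of the log2 fold change lay within -1 and 1, and for 31 within -0.58 and 0.58, a change of 1.5-fold. The median width to each side was 0.44, against 0.22 for the cytosolic genes.

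Nor did any member pass when Lkb1 was targeted. In sgLkb1 against sgInert the median log2 fold change of the members was 0.015, with 36 of 78 below 0, against -0.012 over all genes. In edgeR 0 members passed, against 5.78% of all genes, and 3 were lower and 2 higher at an unadjusted p under 0.05, which 18.5% of all genes met. DESeq2 called 1 lower, Mrpl57, against 4.08% of all genes. Limma on log2(TPM + 1) called 2 higher, Mrpl52 and Mrps33, against 5.6% of all genes, and 19 were higher at an unadjusted p under 0.05, against 18.8%. On that scale the median of all genes stood at 0.18 and that of the members at 0.23. In log2 CPM no member's libraries were fully apart, against 4.15% of all genes. In TPM those of Mrpl52 were, at 129 to 180 with sgInert and 186 to 229 with sgLkb1. How many of all genes were apart in TPM was not counted. In all, 68 intervals lay within -1 and 1.

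The highest 3 in sgLkb1 were Mrps6, Mrps12 and Mrps23. Mrps6, counterpart of bacterial S6, ran from 1.53 through 2.16 to 2.32 log2 CPM in sgInert, and stood at 2.32, 2.57, 2.94, 2.97 and 2.97 in sgLkb1 (log2 fold change 0.76, SE 0.32, adjusted p = 0.191), on 11 to 75 counts per library. Mrps23, a small subunit protein particular to mitochondria, ran from 2.35 through 2.73 to 3.66 in sgInert, and stood at 3.40, 3.703, 3.59, 3.78 and 3.39 in sgLkb1 replicates 1 to 5 (log2 fold change 0.63, SE 0.27, adjusted p = 0.190). All sgLkb1 libraries were above 6 of the 7 sgInert libraries. Mrps12 had a log2 fold change of 0.71 (SE 0.54, adjusted p = 0.542).

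The lowest 3 were Mrpl57, Mrps9 and Mrpl35. Mrps9 is the counterpart of bacterial S9 (log2 fold change -0.46, SE 0.21, adjusted p = 0.248, and -0.29 without sgInert replicate 6) and Mrpl35 that of L35 (-0.42, SE 0.28, adjusted p = 0.470). Their sgLkb1 libraries spanned 3.48 to 4.01 and 3.43 to 4.62 log2 CPM, overlapping the sgInert libraries at 3.67 to 4.90 and 4.01 to 4.99.

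**Figure D2:**
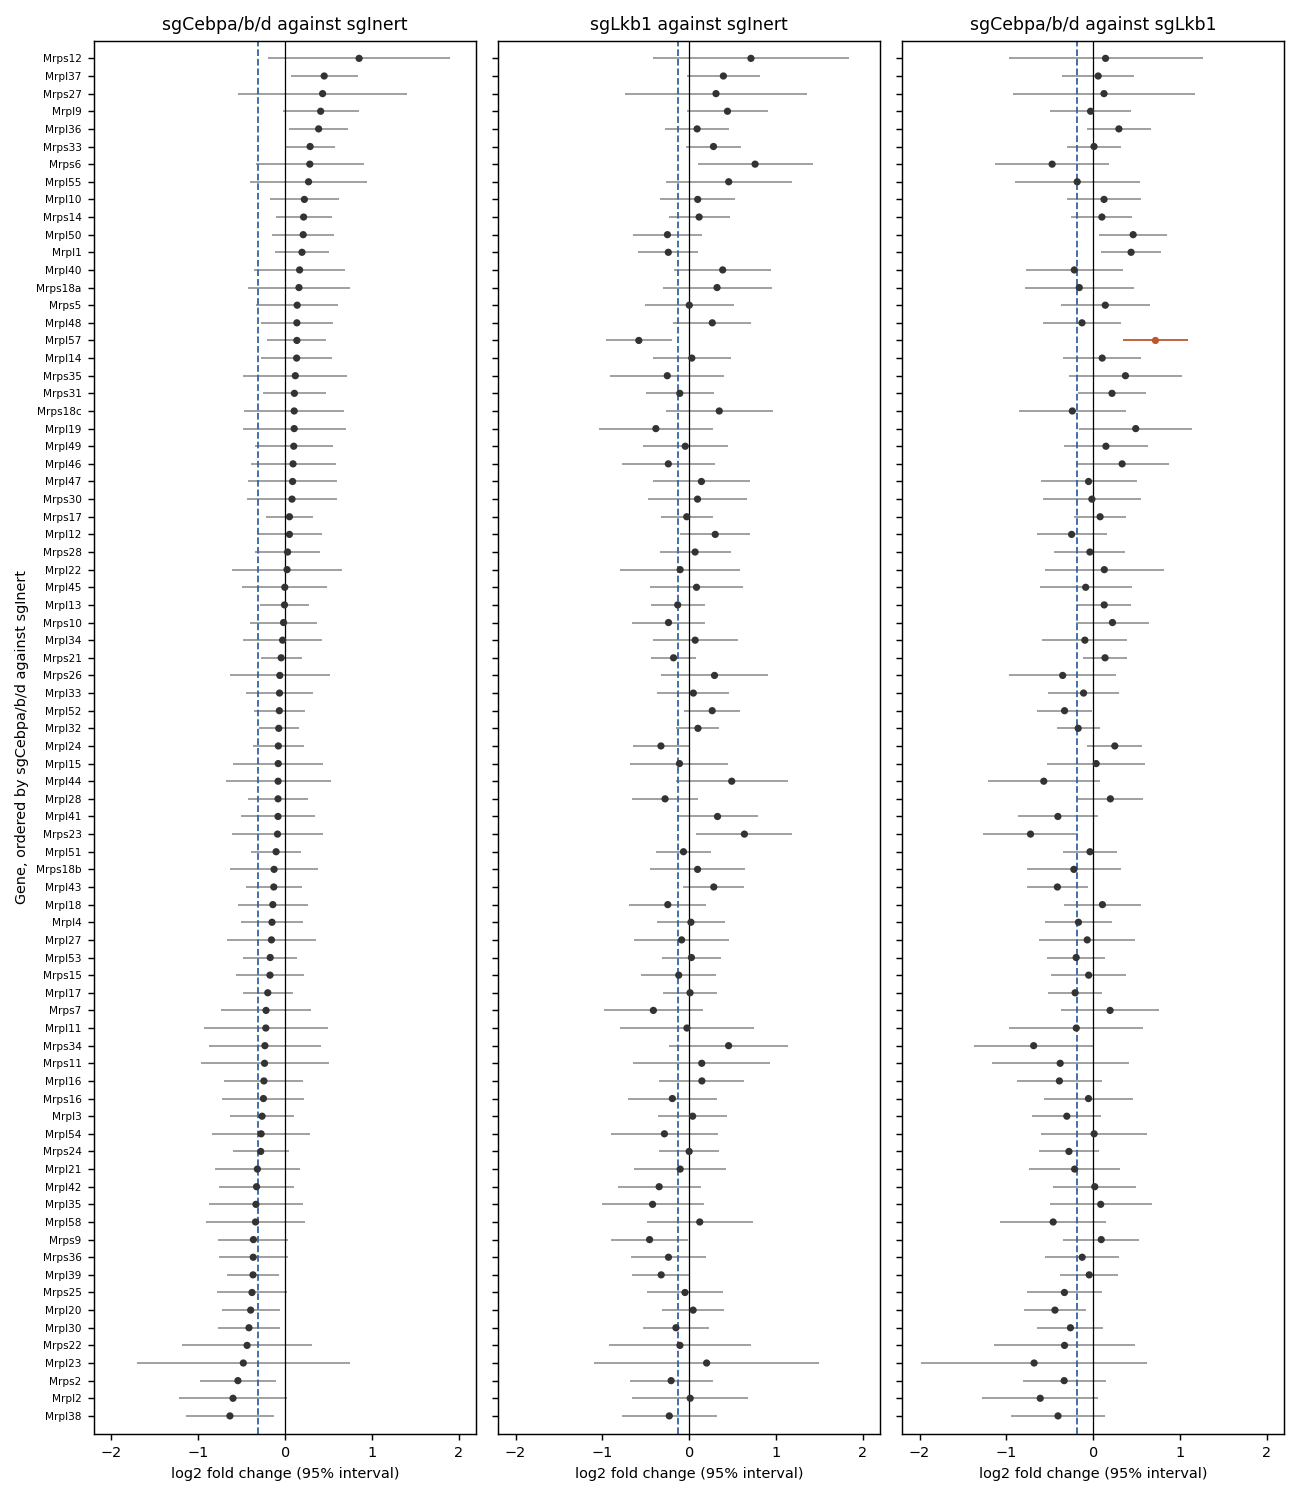
Log2 fold change with its 95% interval for each of the 78 genes in the 3 comparisons, ordered by sgCebpa/b/d against sgInert; the solid line is 0, the dashed line the median of the 79 cytosolic genes, and orange marks an adjusted p under 0.05. Intervals straddle 0 for 71, 73 and 70 of the genes, and Mrpl57 in the panel of sgCebpa/b/d against sgLkb1 is the one in orange.

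One member passed the test between the targeted groups. Mrpl57 (chr14:57826234-57829296, plus strand, GRCm38), a small mitochondria-specific protein of the large subunit once called Mrp63, had its higher level in sgCebpa/b/d. Its level was 4.09, 3.91, 4.30, 3.66 and 3.60 log2 CPM in sgLkb1 replicates 1 to 5. It ran from 3.91 through a median of 4.69 to 4.94 in sgCebpa/b/d and from 4.08 through 4.54 to 4.79 in sgInert. Of the 7 sgCebpa/b/d libraries 6 lay above all 5 of sgLkb1, and replicate 6, at 3.91, lay among them. The log2 fold change was 0.72 (SE 0.18, 95% interval 0.34 to 1.09, edgeR adjusted p = 0.0201), on 81 to 225 counts per library. It was -0.58 (SE 0.18, adjusted p = 0.0650) in sgLkb1 against sgInert and 0.13 (SE 0.16, adjusted p = 0.691) in sgCebpa/b/d against sgInert.

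Mrpl57 was the sole call of the 78 in sgCebpa/b/d against sgLkb1, against 5.96% of all genes in either direction and 2.83% called higher. DESeq2 called the same gene higher (adjusted p = 0.00441), with 4.08% of all genes. Limma on log2(TPM + 1) did not, and called 5 members lower, Mrpl33, Mrpl41, Mrpl43, Mrpl52 and Mrps34, against 5.76% of all genes, on a scale where the median of all genes stood at -0.15 and that of the members at -0.32. In edgeR, 5 members were lower and 3 higher at an unadjusted p under 0.05, Mrpl57 included, where 18.3% of all genes fell under it. In log2 CPM no member's libraries were fully apart (5.08% of all genes). In TPM those of Mrpl43 were, at 10.07 to 21.1 with sgCebpa/b/d and 21.8 to 32.8 with sgLkb1. The share of all genes apart in TPM was not counted here either. The median log2 fold change was -0.063 with 47 of 78 below 0, against 0.029 over all genes. Across the 3 groups in 1 F test, Mrpl57 again was the only member past an adjusted p of 0.05 (0.0252), where 13.4% of all genes passed.

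The call of Mrpl57 depends on how its length is treated and on single libraries. RSEM's effective length of the gene, which depends on the mix of its transcripts, had a median of 510 bases (417 to 708) for sgLkb1, 614 (532 to 780) for sgCebpa/b/d and 557 (429 to 764) for sgInert. In TPM, which divides by it, Mrpl57 had a median of 41.99 in sgLkb1 (32.3 to 45.9) and 56.7 in sgCebpa/b/d (27.97 to 64.3). With effective lengths as offsets the log2 fold change was 0.46 and the call was lost (edgeR adjusted p = 0.236), and limma on TPM gave 0.25 (adjusted p = 0.480). It was also lost without sgLkb1 replicate 4 (0.65, adjusted p = 0.0696) or replicate 5 (0.64, adjusted p = 0.0660), and when libraries of the same animal were summed (0.68, adjusted p = 0.0932) or those without a number were left out (0.79, adjusted p = 0.0550). Within the MT libraries the log2 fold change was 0.79 (SE 0.21, adjusted p = 0.0353).

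The other extremes of this comparison did not pass. The highest after Mrpl57 were Mrpl19 (0.49, SE 0.31, adjusted p = 0.442) and Mrpl50, found only in mitochondria (0.46, SE 0.19, adjusted p = 0.182). Mrpl50 stood at 4.20 to 4.70 log2 CPM in sgLkb1 and 4.27 to 5.37 in sgCebpa/b/d. The lowest were Mrps23 (-0.72, SE 0.27, adjusted p = 0.126), Mrps34, another small subunit protein found only in mitochondria (-0.69, SE 0.33, adjusted p = 0.270), and Mrpl23 (-0.68, SE 0.63, adjusted p = 0.622), which stood at -1.27 without sgCebpa/b/d replicate 6 and -0.35 without sgLkb1 replicate 2. Mrps23 ran from 2.29 through 2.61 to 3.56 log2 CPM in sgCebpa/b/d, so that 1 of its 7 libraries reached the sgLkb1 range.

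**Figure D3:**
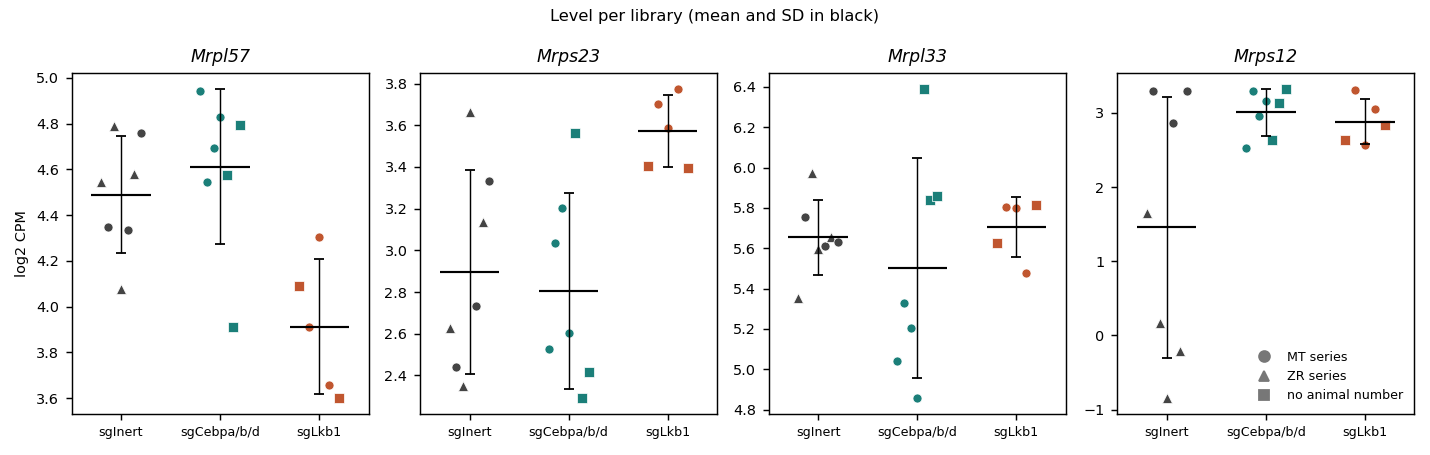
Log2 CPM of Mrpl57, Mrps23, Mrpl33 and Mrps12 in each library by group, with the mean and SD in black; the marker gives the title series, and the axes do not start at 0. Mrpl57 is low in the 5 sgLkb1 libraries (3.60 to 4.30), Mrpl33 splits in sgCebpa/b/d by series, and Mrps12 splits in sgInert by series.

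The members were also read by subunit and evolutionary class. In sgCebpa/b/d against sgInert the median log2 fold changes were -0.080 and -0.067 for large subunit proteins with and without a bacterial counterpart and -0.033 and -0.075 for those of the small subunit. In sgLkb1 against sgInert they were 0.015, 0.083, -0.015 and 0.19, and between the targeted groups -0.084, -0.088, 0.019 and -0.28, with no call in any class but that of Mrpl57. Small subunit genes summed to 39.2% to 48.2% of the large subunit TPM for sgInert, 43.9% to 51.3% for sgCebpa/b/d and 41.2% to 45.1% for sgLkb1, which overlap.

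The cytosolic ribosomal protein genes encode proteins of the ribosome that makes all nuclear-encoded proteins. They gave many more calls than their mitochondrial namesakes only in sgCebpa/b/d against sgInert, with 2 of 79 called in each other comparison. Whether the families differ was not tested. In sgCebpa/b/d against sgInert 33 of 79 fell and none rose, against 5.36% of all genes called lower (13 without the libraries lacking an animal number, against 3.46%, and 61 in MT libraries only, against 4.25%), with a median log2 fold change of -0.31 and 75 below 0. Rps29 (-0.47, SE 0.07, adjusted p = 0.000131) and Rps25 (-0.63, SE 0.10, adjusted p = 0.000220) were among the 3 smallest p. The 2 families also differ in precision, as given above, and 15 of the 78 mitochondrial genes lay at or below the cytosolic median. In sgLkb1 against sgInert 2 of 79 were lower, Rps12 and Rplp0 (background 2.97%), with a median of -0.13 that turned to 0.10 in limma on TPM, and 23 were lower in MT libraries only (background 3.36%). In sgCebpa/b/d against sgLkb1 2 were lower, among them Rpl13a (background 3.12%), with a median of -0.19, but 26 in limma on TPM.

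**Figure D4:**
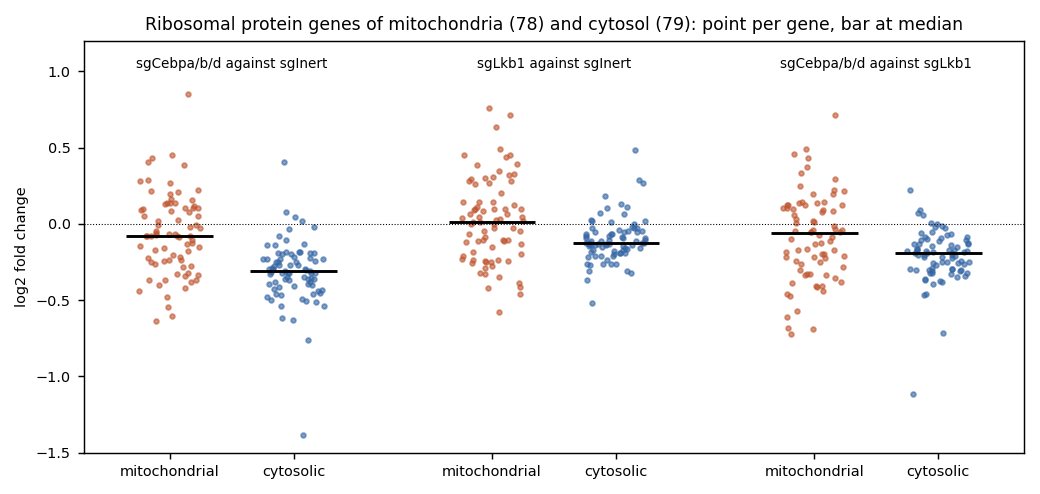
Log2 fold change of each mitochondrial (78, orange) and cytosolic (79, blue) ribosomal protein gene in the 3 comparisons, with bars at the medians. The mitochondrial bars lie at -0.077, 0.015 and -0.063 and the cytosolic bars at -0.31, -0.13 and -0.19, with the mitochondrial genes spread more widely about theirs.

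Summed over the genes, the mitochondrial set took 2337 to 2806 TPM with sgInert (median 2460), 1962 to 2797 with sgCebpa/b/d (2518) and 2697 to 3422 with sgLkb1 (2950). On the TMM-scaled CPM scale the sums were 1197 to 1521, 1190 to 1374 and 1245 to 1464, so that the higher TPM of sgLkb1 had no counterpart there. The cytosolic sums were 76724 to 106538 TPM for sgInert, 54249 to 82490 for sgCebpa/b/d and 80259 to 102976 for sgLkb1. The mitochondrial sum was 2.63% to 3.20% of the cytosolic sum for sgInert, 3.27% to 3.63% for sgCebpa/b/d and 3.09% to 3.36% for sgLkb1. All 7 sgCebpa/b/d libraries thus lay above all 7 of sgInert. Within the MT libraries the ranges were 2.63% to 2.79%, 3.39% to 3.63% and 3.12% to 3.36%, and the 4 ZR libraries of sgInert held 2.78% to 3.20%. These sums are given without a test.

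**Figure D5:**
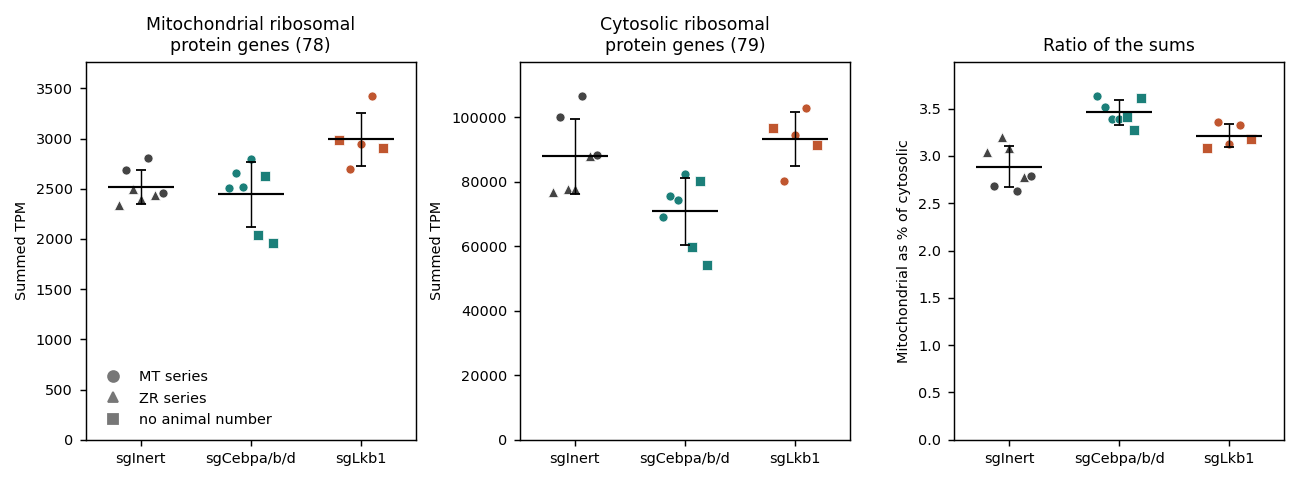
Summed TPM of the 78 mitochondrial and 79 cytosolic ribosomal protein genes and the first as a percentage of the second, per library; markers give the title series and black bars the mean and SD. The percentage is 2.63 to 3.20 in sgInert and 3.27 to 3.63 in sgCebpa/b/d, while the mitochondrial sums of these groups overlap.

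Some members differed by title series within a group. Within sgInert, 10 of 78 members (12.8%) were lower in all 4 ZR than in all 3 MT libraries and none higher. Of all 13986 genes, 820 were lower in this way and 762 higher, 11.3% in either direction. Of the cytosolic genes 32 of 79 were lower in the same way (40.5%) and none higher. Mrps12, counterpart of bacterial S12 at the decoding center, had 15, 3, 1 and 3 counts in the ZR libraries and 52, 54 and 39 in the MT libraries. In the other groups it had 15 to 93 counts, at 2.52 to 3.33 log2 CPM. Mrps27 had 2 to 5 counts in the ZR libraries and 15 to 27 in the MT libraries of sgInert. Within the MT libraries the log2 fold changes of Mrps12 were -0.14 in sgCebpa/b/d and -0.17 in sgLkb1, and that of Mrps27 in sgCebpa/b/d was -0.14.

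Within sgCebpa/b/d, 6 members were lower and 3 higher in the libraries without an animal number than in the MT libraries (9 of 78, against 22.2% of all genes). The most abundant member, Mrpl33, was among those higher, with 5.84, 5.86 and 6.39 log2 CPM in the former and 4.86 to 5.33 in the latter. It held 10.54% to 11.6% of the members' TPM in the former, 5.50% to 6.77% in the latter and 7.36% to 10.9% in the other groups' libraries. The log2 fold change of Mrpl33 in sgCebpa/b/d against sgInert was -0.066 (SE 0.18, adjusted p = 0.880) over all libraries and -0.56 (SE 0.15, adjusted p = 0.0329) within the MT libraries. Mrpl58, a peptidyl-tRNA hydrolase of the large subunit, was the other member called lower there (-0.85, SE 0.24, adjusted p = 0.0409). Mrpl42 was called lower in sgLkb1 within the MT libraries (-0.88, SE 0.20, adjusted p = 0.0150). Of all genes, 4.25% were called lower in sgCebpa/b/d and 3.36% in sgLkb1 within the MT libraries. Mrpl33, Mrpl58 and Mrpl42 were picked out here after their values were seen. Within sgLkb1, 11 members were lower and 4 higher in the 2 libraries without an animal number than in the 3 MT libraries (19.2% of the members, against 24.1% of all genes). Mrps2 was among those lower and Mrpl42 among those higher.

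The genes of mitochondrial translation read here other than the members gave no call in edgeR. Mitoribosome proteins known by other names, Dap3, Chchd1, Aurkaip1, Ptcd3 and Gadd45gip1, had log2 fold changes between -0.30 and 0.14 in the 3 comparisons, and none passed. Of 79 tested genes for assembly of the ribosome (25), translation factors (20, a list that also holds Mrps36, which is a member and no such factor), aminoacyl-tRNA synthetases (20) and expression of mitochondrial DNA (14), edgeR called 0 in each comparison. At an unadjusted p under 0.05, 4 were lower and 5 higher in sgCebpa/b/d against sgInert, 2 and 2 in sgLkb1 against sgInert, and 0 and 5 between the targeted groups, beside the 23.2%, 18.5% and 18.3% of all genes given above. DESeq2 called 0, and limma on TPM called 1 higher in each comparison with sgInert, where 3.8% and 5.6% of all genes were called higher. The messages of mitochondrial DNA itself were not analysed here.

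Among 11 tested regulators of mitochondrial biogenesis, edgeR called Myc lower and Mycn higher in both comparisons with sgInert, which share the control libraries. Of all genes, 5.36% were called lower and 4.73% higher with sgCebpa/b/d, and 2.97% and 2.81% with sgLkb1. Myc had log2 fold changes of -0.91 with sgCebpa/b/d (SE 0.21, adjusted p = 0.00716) and -0.96 with sgLkb1 (SE 0.24, adjusted p = 0.0177). Mycn had 0.92 (SE 0.26, adjusted p = 0.0236) and 1.13 (SE 0.27, adjusted p = 0.0154). Limma on TPM called 1 of the 11 lower and 0 higher with sgCebpa/b/d, where it called 7.46% of all genes in either direction. With sgLkb1 it called 0 lower and 1 higher, where 5.6% of all genes were called higher. Limma thus did not call Mycn higher with sgCebpa/b/d, nor Myc lower with sgLkb1. Ppargc1a, which encodes PGC-1 alpha, stood below its sgLkb1 level in sgCebpa/b/d (-1.58, SE 0.36, edgeR adjusted p = 0.00877), with no overlap of libraries. Of all genes, 3.12% were called lower there and 5.08% had no overlap. Against sgInert, Ppargc1a did not pass in either group (-0.70 and 0.88).

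Markers of the alveolar type II lineage, thought to be a major origin of such tumors, and of other cells were read by group. The 7 alveolar type II markers summed to 50128 to 68251 TPM for sgInert, 31645 to 58155 for sgCebpa/b/d and 41271 to 54957 for sgLkb1, and none was at 0. Of these 7, 3 were called lower in each targeted group, where 5.36% and 2.97% of all genes were called lower with sgCebpa/b/d and sgLkb1. The 7 fibroblast markers summed to 24.2 to 561.7, 117 to 442 and 274 to 675 TPM, and 2 of 7 were called higher in each targeted group, where 4.73% and 2.81% of all genes were called higher with sgCebpa/b/d and sgLkb1. The 6 endothelial markers summed to 4.98 to 18.1, 5.63 to 85.3 and 14.9 to 67.5 TPM. Of these, 4 were called higher in sgCebpa/b/d and 0 in sgLkb1. The 7 immune markers reached at most 44.4 TPM, with 2 of them at 0 in every sgInert library, and the 6 erythroid markers at most 6.72. Of the 5 immune markers tested none was called. The 16 proliferation genes summed to 110 to 410, 148 to 477 and 212 to 306 TPM, and none was called. Their part in the values of the ribosomal protein genes was not tested.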

How the data were processed

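Neoplastic cells of lung tumors were profiled by bulk RNA-seq (Trio RNA-Seq Mouse rRNA kit) in 19 libraries. Per the submitters' processing notes in the labels, the authors aligned reads with STAR (2.6.1d) and quantified genes with RSEM (1.2.30) on mm10, and passed estimates to DESeq2 (1.26.0) through tximport. The deposited values used are expected counts, TPM and effective lengths per gene. The authors' own comparison tables hold fold changes and p-values and were not used. Groups were taken from the labels. Expected counts were rounded and tested with edgeR (4.0.16, quasi-likelihood, TMM, filterByExpr with a minimum count of 10), all 19 libraries in 1 fit without covariates, with Benjamini-Hochberg adjustment over 13986 genes. Log2 CPM used a prior count of 2. DESeq2 (1.42.0), limma (3.58.1, pseudocount 1 on TPM), other scalings, filters, covariates, series and leaving out each library were alternatives. Scripts were tested on simulated data. Named genes were those called, the 3 highest and 3 lowest fold changes per comparison, the 4 highest and lowest levels, the S18 paralogs and the gene nearest the count rule; others are named as chosen later. The members and lists were chosen with earlier results of these data known. Gene positions are from GENCODE vM21 and all 78 symbols matched. No 2 libraries of a group agreed within sampling noise. Some items are not reported here.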

Additional observations from a re-analysis of the deposited data

Results flagged for a closer look

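Of 84 sets of 5 or 7 libraries, for the genes named by rule and 4 measures summed over the members in each group, 3 held a library whose gap to the others was large for the range of the set by Dixon's test, where chance gives about 1 in 20. Among the sgCebpa/b/d libraries these were Mrpl19 in replicate 7, at 2.17 log2 CPM (nearest other 3.52), Mrpl32 in replicate 6, at 6.29 (nearest other 6.59), and Mrpl57 in replicate 6, at 3.91 (nearest other 4.54). The effects of the 2 viruses against sgInert on Mrpl57 differed by 0.72 on the log2 scale, which is the edgeR contrast between sgCebpa/b/d and sgLkb1 (adjusted p = 0.0201). Without sgCebpa/b/d replicate 6 it was 0.81 (adjusted p = 0.00445).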

How the results depend on the processing

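Other settings moved the calls by a few genes. Of all genes, 3.46% were called lower in sgCebpa/b/d against sgInert without the libraries lacking an animal number, and 4.25% in MT libraries only. In sgLkb1 against sgInert 3.36% were called lower in MT libraries only. Shares for the DESeq2 and limma comparisons stand above. For the other settings and the alternative F tests no share is given, so their counts are no result about the members. Members called lower in sgCebpa/b/d against sgInert numbered 1 with sex (Mrpl30) or title series (Mrps25) as a covariate or without the libraries lacking an animal number (Mrpl33), 2 in MT libraries only (Mrpl33 and Mrpl58), and 0 to 1 on leaving out a library (Mrpl39 without sgCebpa/b/d replicate 3). In sgLkb1 against sgInert, 1 was lower in DESeq2 (Mrpl57), with sex or in MT libraries only (Mrpl42 in both), and 0 to 1 on leaving out a library (Mrpl57 without sgInert replicate 4, sgCebpa/b/d replicate 6 or sgLkb1 replicate 3). There, 2 were higher in limma and 1 with sex (Mrps6). Between the targeted groups, 5 were lower in limma, 1 in MT libraries (Mrpl33) and 0 to 1 on leaving out a library (Mrps23 without sgCebpa/b/d replicate 5). Higher there were 0 with length offsets, in limma, with animals summed or without the unnumbered libraries, 2 with sex (Mrpl50 and Mrpl57), and 0 to 1 on leaving out a library. The F test passed 0 with length offsets, without a count filter or with animals summed, 2 with sex (Mrpl57 and Mrps6), 3 in MT libraries (Mrpl33, Mrpl42 and Mrpl58), 4 in limma (Mrpl33, Mrpl41, Mrpl43 and Mrpl52) and 1 without the unnumbered libraries (Mrpl33), the last 3 settings not calling Mrpl57, and 0 to 2 on leaving out a library (0 without sgLkb1 replicate 2, 4 or 5, and 2 without sgCebpa/b/d replicate 5). The member median was 0.23 in limma and -0.10 in MT libraries for sgLkb1 against sgInert, and -0.32 in limma between the targeted groups. Mrpl57 in sgCebpa/b/d against sgInert turned to -0.11 with length offsets and -0.094 in limma. With title series as a covariate and in MT libraries, Mrps12 turned to -0.081 and -0.14 in sgCebpa/b/d and to -0.23 and -0.17 in sgLkb1, and Mrps27 in sgCebpa/b/d to -0.32 and -0.14. The cause was not tested. The cytosolic counts, an alternative chosen after seeing the data, ran from 13 to 61, 0 to 23 and 1 to 26 over settings, and 25 to 45, 0 to 3 and 1 to 5 on leaving out a library. Replicate numbers do not pair libraries by the labels, and 6 of 17 same-numbered pairs correlated above 0.1 (-0.358 to 0.358). With the replicate block 0, 0 and 1 members were called (Mrpl57 at 0.74, adjusted p = 0.0261), and 29 cytosolic genes fell with sgCebpa/b/d.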
